A study of Mus musculus with 6 samples.

Results

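The genes of the mitochondrial protein import machinery were compared between hematopoietic stem cells (HSCs) of Rpl22-/- and Rpl22+/+ mice. The members were chosen by symbol: every row of the count table named Tomm or Timm followed by a digit, and 9 others that work in the same route, namely Pam16, Dnajc19, Grpel1, Hspa9, Pmpca, Pmpcb, Samm50, Mtx1 and Mtx2. This rule used no measured value. It found 32 of the 34573 genes in the table, and 30 of the 32 had enough reads to be among the 14004 genes tested. Timm10b and Timm29 stand in the table under the older symbols Fxc1 and 1810026J23Rik, so the rule did not take them, and they are given apart from the 32. Tomm70 is listed as Tomm70a.

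Rpl22 encodes a protein of the large ribosomal subunit, and the study asked how its loss changes the HSC and its transformation. Rpl22 knockout mice (Rpl22-/-, 3 libraries) were compared with wild-type mice (Rpl22+/+, 3 libraries), all of them young adults that the study's methods place on the C57BL/6 background. The study describes the Rpl22 knockout as an ablation of the gene in the germline, and names no Cre or promoter that would restrict it to HSCs. No other allele or treatment is named for these libraries, and the sex of the mice is not given in the sources used here. The labels give the sorted bone marrow cells as lineage-negative CD48-CD150+, the study defines HSCs as positive for Sca-1 and c-Kit as well, and polyA+ RNA was sequenced. Whether a library came from 1 mouse or from several is not stated. The p-values thus judge the genotype difference against the spread between these libraries, which may be technical in part.

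Nearly all mitochondrial proteins are encoded in the nucleus, made on cytosolic ribosomes and imported as unfolded chains. The TOM complex is the gate of the outer membrane: Tomm20 and Tomm70 are receptors, Tomm22 is the central receptor, Tomm40 is the channel, and Tomm5, Tomm6 and Tomm7 are small subunits. Behind it the routes part. Chains with a presequence pass the inner membrane through the TIM23 complex, are drawn into the matrix by a motor built on the chaperone Hspa9, and lose the presequence to the peptidase made of Pmpca and Pmpcb. Carrier proteins are escorted by the small TIM chaperones to the TIM22 complex, and barrel-shaped outer membrane proteins are inserted by the SAM complex. HSCs are known to hold mitochondria that are kept at low respiratory activity.

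Short stretches of promoter are shown here for the genes on which the comparison turns and for import genes that did not pass the test. They come from RefSeq windows of GRCm38.p6 (250 bases before and 50 after each annotated start), which were found for 28 of the 32 members. On both strands, 4 motifs were searched: CGCATGCG, the core of the site of nuclear respiratory factor 1, CCGGAAG, a site of ETS family factors, CACGTG, the E-box, and AAGATGGCG, a site of YY1. CGCATGCG and CACGTG read the same on both strands, and CCGGAAG on one strand can overlap its own complement on the other, as it does in Tomm22. Each line gives 10 bases on either side of a match, 5′ to 3′ on the strand of the gene, with the match in capitals (CTTCCGG is CCGGAAG on the other strand).
Timm13, CGCATGCG, chr10:80901145-80901172, minus strand, 193 bases before the start: ttatattgtaCGCATGCGcagcggggag
Timm23, CCGGAAG, chr14:32201922-32201948, minus strand, 47 bases before the start: gcgcttcccaCTTCCGGgccgcacaca
Timm23, CCGGAAG, chr14:32201865-32201891, minus strand, 10 bases after the start: gagccggcgcCCGGAAGgtcagcgtgg
Tomm22, CCGGAAG, chr15:79670814-79670840, plus strand, 44 bases before the start: cggctcgcttCCGGAAGacgctctgtc
Pmpca, CCGGAAG, chr2:26389285-26389311, plus strand, 53 bases before the start: gctcggcgggCCGGAAGccagcgccga
Pmpcb, CCGGAAG, chr5:21737134-21737160, plus strand, 16 bases before the start: gagtcatgacCCGGAAGtacatctcca

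CCGGAAG stood in the windows of 12 of the 28 members (42.9%) and of 9.93% of the windows of all 27025 genes that have one. CGCATGCG stood in 1 member window, that of Timm13 (3.6%, against 2.07% of all genes), CACGTG in 5 (17.9%, against 8.09%) and AAGATGGCG in 2, Mtx1 and Timm50 (7.1%, against 1.64%). These shares describe letters in a window, not bound sites, and the windows compared were not matched for base composition. Of the 4 import genes that passed the test between genotypes, Timm13 and Timm23 had a match and the windows of Tomm40 and Timm17b had none of the 4 motifs. Tomm22, Pmpca and Pmpcb carried CCGGAAG within 53 bases of the start and did not pass the test.

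Each library held between 9321123 and 13385850 reads on genes, fewest in Rpl22+/+ replicate 3. Reads on Rpl22 fell from 5031 to 7001 in Rpl22+/+ libraries to 449 to 546 in Rpl22-/- libraries, so that all 6 matched their labels. Of the HSC list of 11 genes, the 10 other than Cd48, which the sort selects against, were detected in every library and summed to 2448 to 2605 CPM in Rpl22-/- and 2619 to 2658 CPM in Rpl22+/+ HSCs, where CPM stands for reads brought to a common library size with TMM factors. Among these, Fgd5 was called lower (log2 fold change −0.41, edgeR adjusted p = 0.0308), and Mecom and Hlf were below in all 3 Rpl22-/- libraries without passing. Slamf1 and Ly6a went the other way, with log2 fold changes of 0.305 and 0.276. Their libraries overlapped between genotypes and they did not pass either (edgeR adjusted p = 0.154 and 0.273). Markers of other lineages were lower and not equal between the genotypes. Those of megakaryocytes summed to 742 to 921 CPM in Rpl22-/- against 502 to 667 CPM in Rpl22+/+, with 4 of the 5 tested called higher and Gp6 at 0. Those of neutrophils and monocytes summed to 287 to 459 against 282 to 326 CPM, with the highest sum in Rpl22-/- replicate 2 and 1 of 9 tested, Ctsg, called higher (log2 fold change 2.85, edgeR adjusted p = 0.0282). Erythroid markers summed to 31.1 to 37.2 against 33.9 to 45.4 CPM, with 2 of 5 tested called lower, Car1 and Ermap. Epor went the other way, at 23.5, 21.2 and 20.6 CPM in Rpl22-/- against 17.8, 18.3 and 19.2 CPM in Rpl22+/+ libraries. Epor did not pass (log2 fold change 0.239, edgeR adjusted p = 0.281), nor did Klf1 (−0.113) and Hbb-b1 (0.320). Markers of B cells summed to 24.6 to 28.2 against 21.2 to 23.4 CPM (Ms4a1 at 0). Those of T cells summed to 3.35 to 5.09 against 3.93 to 6.07 CPM (Cd3e and Trac at 0). Fewer cells of a type and less RNA per cell cannot be told apart in such bulk samples, and the part of these markers in the differences that follow was not tested.

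Of the 30 import genes tested, 4 were higher in Rpl22-/- HSCs and none was lower at the 0.05 threshold by the quasi-likelihood test of edgeR, its p-values adjusted by Benjamini and Hochberg's method across all 14004 genes. The 4 were Tomm40, the channel of the outer membrane, Timm23 and Timm17b, which form the channel region of the TIM23 complex, and Timm13, a small TIM chaperone. They made up 13.3% of the members tested, while 5.57% of all genes tested were called in either direction and 3.28% were called higher. DESeq2 and limma-voom called the same 4 and no member as lower. At an unadjusted p below 0.05 there were 7 members higher and 1 lower, or 26.7% of the members against 22.3% of all genes. The log2 fold changes of the 30 ran from −0.40 to 1.06, with a median of 0.065 beside −0.0068 over all genes tested. Positive values were found for 20 of the 30 (66.7%), beside 48.7% of all genes, and for 16 of the 30 when libraries were scaled by their size alone. The plot of log2 fold changes by complex shows the spread within each group.

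**Figure D1:**
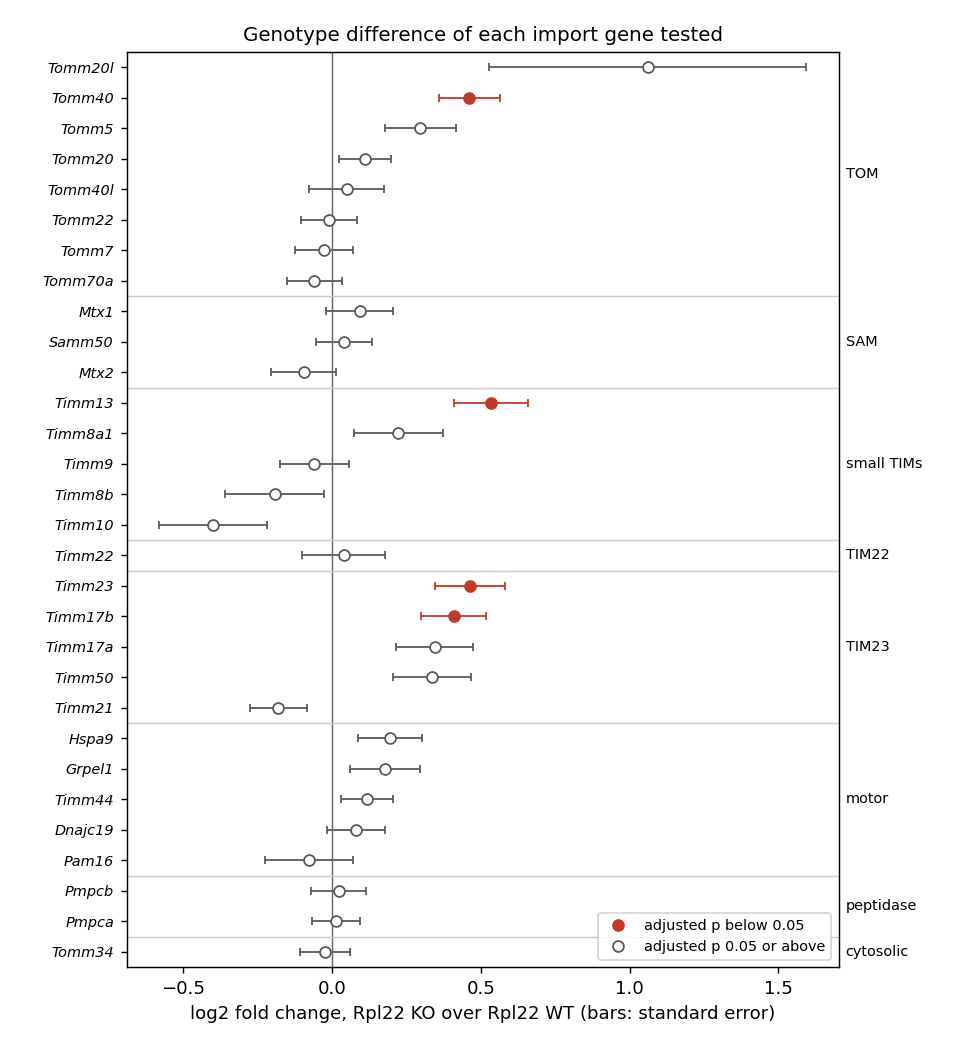
Log2 fold change of each of the 30 import genes tested, Rpl22 KO (Rpl22-/-) over Rpl22 WT (Rpl22+/+), with bars of 1 standard error from edgeR, grouped by complex. The 4 filled points, Tomm40, Timm13, Timm23 and Timm17b, lie between 0.41 and 0.53, and most of the open points lie within 0.2 of the line at 0.

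Tomm40 lies on chromosome 7 from 19701313 to 19715438 (GRCm38, minus strand). Reads on it numbered 773, 775 and 750 across the Rpl22-/- libraries, in order of replicate, and 610, 578 and 369 across the Rpl22+/+ libraries, or 60.2, 64.5 and 57.0 CPM against 46.9, 46.4 and 38.4 CPM. All 3 Rpl22-/- libraries were above all 3 Rpl22+/+ libraries, and the lowest Rpl22+/+ value was that of replicate 3. The means were 60.6 ± 3.78 CPM in Rpl22-/- and 43.9 ± 4.76 CPM in Rpl22+/+ HSCs (SD, n = 3 each), a log2 fold change of 0.46 (standard error, SE, 0.102; edgeR adjusted p = 0.0190). An antisense gene, Gm20512, shares 258 of its exon bases (15.4%), and reads of the pair cannot be told apart if the counting ignored strand, which is not stated. Gm20512 held 543 reads over the 6 libraries, where Tomm40 held 3855.

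Timm23, the pore-forming partner of the presequence translocase, lies on chromosome 14 from 32180162 to 32201898 (minus strand). It had 59.5, 73.5 and 59.9 CPM in the Rpl22-/- libraries and 49.6, 51.3 and 38.6 CPM in the Rpl22+/+ libraries. The genotypes did not overlap, and Rpl22-/- replicate 2 was the highest and Rpl22+/+ replicate 3 the lowest of the 6. The means of 64.3 ± 7.94 and 46.5 ± 6.89 CPM (SD, n = 3 each) gave a log2 fold change of 0.46 (SE 0.118, edgeR adjusted p = 0.0338). Copies of its transcript stand elsewhere in the genome, among them Gm10273 with an identity of 99.9% and Gm10233 and Gm10171 with 100%. They held 5, 0 and 2 reads in the table, and Gm16209, 98.2% identical, held 40, the most of the copies listed there. How the authors' counting treated reads that fit several of them is a limit on this value. Other members, among them Tomm20 and Timm17a, have processed pseudogenes too (up to 99.5% and 96.3% identical), with the same limit.

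Timm17b, on the X chromosome from 7899357 to 7908351 (plus strand), encodes the partner of Timm23 in the same complex. Its 35.7, 42.1 and 37.7 CPM in Rpl22-/- libraries stood above the 29.1, 28.8 and 29 CPM in Rpl22+/+ libraries, which hardly differed among themselves. The log2 fold change was 0.41 (SE 0.109, edgeR adjusted p = 0.0402) from 38.5 ± 3.29 and 29 ± 0.154 CPM (SD, n = 3 each). A processed pseudogene, Gm8387, is 93.1% identical to it.

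Timm13, on chromosome 10 from 80899450 to 80900969 (minus strand), encodes a chaperone that carries hydrophobic chains across the space between the membranes. It stood at 42.2, 53.0 and 50.4 CPM in Rpl22-/- and at 39.1, 30.3 and 30.9 CPM in Rpl22+/+ libraries. The groups did not overlap, although replicate 1 of each genotype came within a few CPM of the other. Its log2 fold change of 0.53 (SE 0.124, edgeR adjusted p = 0.0223) was the highest of the 4, from 48.5 ± 5.66 and 33.4 ± 4.90 CPM (SD, n = 3 each).

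These 4 calls changed when a library was left out. Without Rpl22-/- replicate 2, Rpl22-/- replicate 3, Rpl22+/+ replicate 2 or Rpl22+/+ replicate 3, edgeR called 0 of the 30 members, with 4, 7, 8 and 5 of them at an unadjusted p below 0.05, and without Rpl22+/+ replicate 1 it called Timm13 alone. The log2 fold changes themselves stayed positive in all 6 fits with a library left out, between 0.38 and 0.51 for Tomm40, 0.35 and 0.54 for Timm23, 0.34 and 0.47 for Timm17b and 0.47 and 0.66 for Timm13. In the 5 fits with fewer calls, those over all genes fell as well, to between 127 and 370 from 780. Without Rpl22-/- replicate 1 the members called rose to 6, the same 4 with Timm17a and Timm50, while 1720 genes were called over all. With all 6 libraries, Timm17b was lost when they were scaled by size alone (edgeR adjusted p = 0.0594), and Timm23 and Timm17b were lost when each library's trend on gene length was removed (edgeR adjusted p = 0.0717 and 0.0536). With that trend removed and a term for replicate number added, Timm13 and Timm17b were lost (edgeR adjusted p = 0.0519 and 0.0632).

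**Figure D2:**
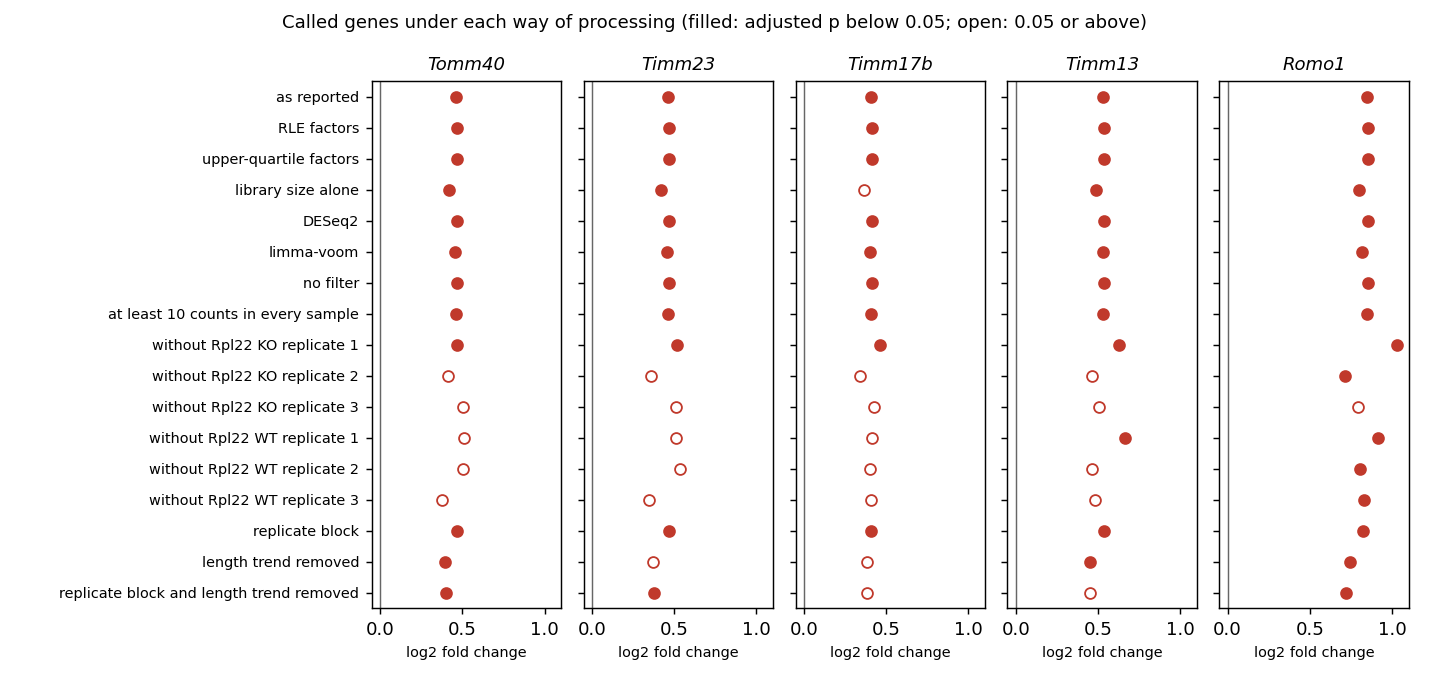
Log2 fold change of the 4 called import genes and of the partner gene Romo1 (Rpl22 KO over Rpl22 WT) as reported and under each of 16 other ways of processing, filled where the adjusted p was below 0.05. Every point lies to the right of 0, between 0.34 and 1.03, and most of the open points belong to fits that left out 1 library.

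In the TIM23 complex, 4 of the 5 genes had positive fold changes and 2 were called, with a median log2 fold change of 0.345. Timm17a, the paralogue of Timm17b, had 26.5, 35.8 and 30.5 CPM in Rpl22-/- and 25.7, 24.2 and 23 CPM in Rpl22+/+ libraries. All Rpl22-/- values were above all Rpl22+/+ values, by little in replicate 1, and the difference did not pass the test (log2 fold change 0.345, edgeR adjusted p = 0.128). Without Rpl22-/- replicate 2 it was 0.23, and without Rpl22-/- replicate 1 it was 0.45 and passed (edgeR adjusted p = 0.0330). Timm50, the receptor that hands presequences to the channel, had 51.9, 78.1 and 58.3 against 53.7, 50.2 and 44.9 CPM. Its groups overlapped, with Rpl22-/- replicate 1 below Rpl22+/+ replicate 1, and the log2 fold change of 0.34 did not pass (edgeR adjusted p = 0.139). It was 0.15 without Rpl22-/- replicate 2, and it passed without Rpl22-/- replicate 1 (0.46, edgeR adjusted p = 0.0219) and with no filter on low counts (0.34, edgeR adjusted p = 0.0248). Timm21, which links the complex to the respiratory chain, went the other way: 41.9, 40.1 and 40.7 CPM in Rpl22-/- were all below 46.1, 47.8 and 45.1 CPM in Rpl22+/+. It was the only member with this order, for a log2 fold change of −0.18 (edgeR adjusted p = 0.276). Libraries of the genotypes did not overlap with Rpl22-/- below in 3.33% of the members, against 13.6% of all genes tested, and with Rpl22-/- above in 7 members (23.3%), against 13.3% of all genes.

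**Figure D3:**
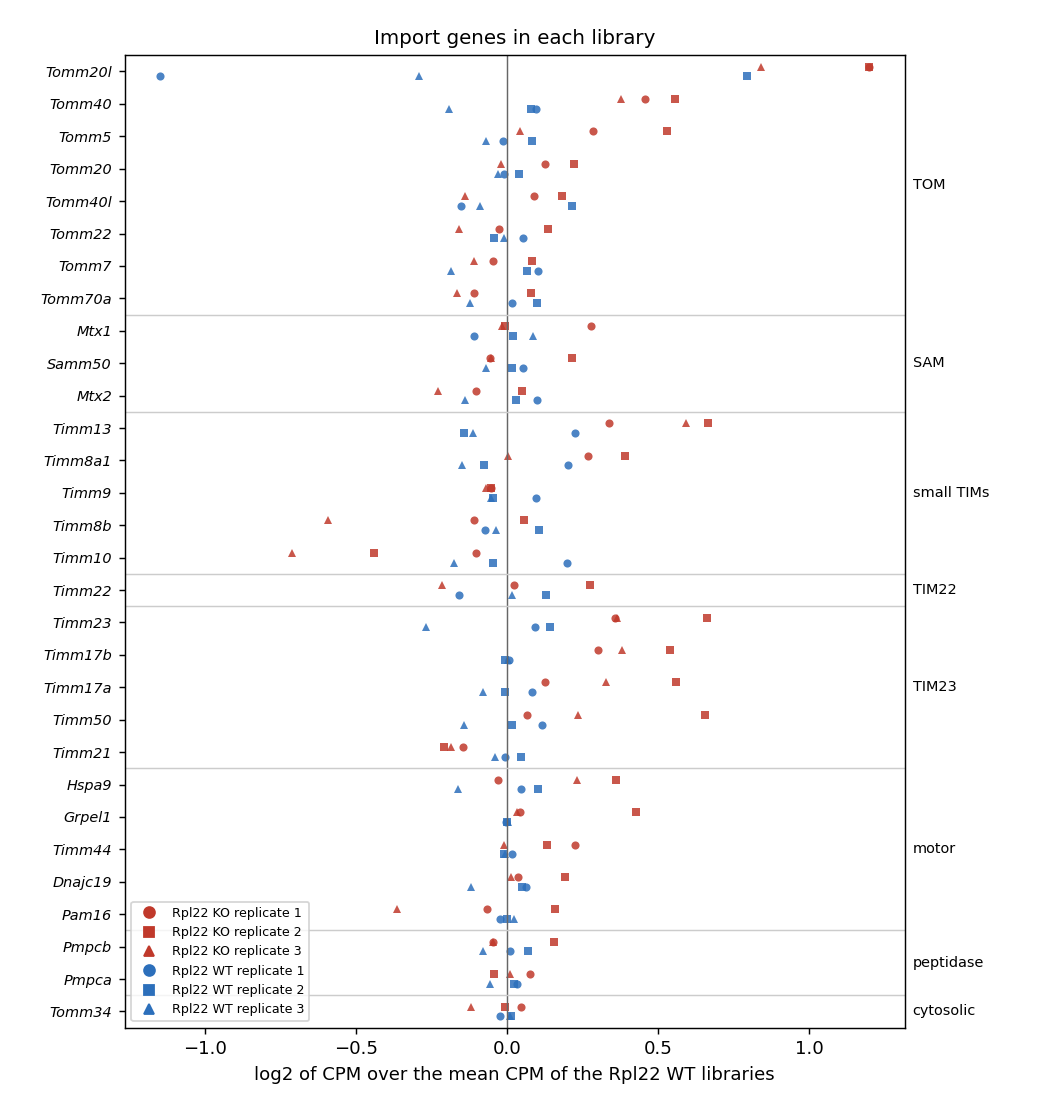
Level of each import gene in each library, as the log2 of its CPM over the mean CPM of the Rpl22 WT (Rpl22+/+) libraries, with genes in rows by complex and a marker shape for each replicate number. The red squares, Rpl22 KO (Rpl22-/-) replicate 2, lie furthest right of the red markers in most rows, and Timm21 and Timm10 lie to the left.

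In the TOM complex, 1 of 8 genes tested was called, Tomm40, and the median log2 fold change was 0.081. Tomm5, a small subunit that helps chains into the channel, had 47.1, 55.8 and 39.8 CPM against 38.3, 40.9 and 36.8 CPM. Rpl22-/- replicate 3 lay below Rpl22+/+ replicate 2, and the difference of 0.30 on the log2 scale did not pass (edgeR adjusted p = 0.156). Tomm20l, a paralogue of the receptor Tomm20, had the largest fold change of any member, 1.06, on very few reads: 15, 14 and 12 in Rpl22-/- and 3, 11 and 4 in Rpl22+/+ libraries. Its groups did not overlap in CPM, and it did not pass (SE 0.532, edgeR adjusted p = 0.255). The receptors Tomm20, Tomm22 and Tomm70a, the small subunit Tomm7 and the channel paralogue Tomm40l lay between −0.06 and 0.11. Of Tomm40l, 45.5% of the exon bases are shared with Nr1i3 on the opposite strand, a limit of the same kind as for Tomm40. Tomm6 had 2 to 9 reads per library and was not tested. The annotation places 656 of its 803 exon bases (81.7%) within Gm21981 on the same strand, where a read matches both genes.

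The small TIM chaperones differed in direction among themselves. Beside Timm13, which rose, Timm10 had 12.5, 9.90 and 8.20 CPM in Rpl22-/- and 15.4, 13 and 11.9 CPM in Rpl22+/+ libraries. Rpl22-/- replicates 2 and 3 were below every Rpl22+/+ library and replicate 1 was not, and with a log2 fold change of −0.40, the lowest of the members, it did not pass (edgeR adjusted p = 0.207). Timm9, its partner in a ring of chaperones, stood at −0.06, Timm8b at −0.19 and Timm8a1, the partner of Timm13, at 0.22, none past the test. Of Timm8b, 15.6% of the exon bases are shared with Nkapd1 on the opposite strand, a limit of the same kind as for Tomm40. Timm8a2 had 2 reads in Rpl22+/+ replicate 1 and 0 in the other 5 libraries, and was not tested. Among the 2 genes outside the rule, Fxc1 (Timm10b) was at 12.9 ± 2.92 and 14.4 ± 2.09 CPM (SD, n = 3 each; log2 fold change −0.16, edgeR adjusted p = 0.664). The other, 1810026J23Rik (Timm29), a subunit of the TIM22 complex, was at 60.0, 59.7 and 67.8 CPM in Rpl22-/- and 55.8, 54.7 and 48.6 CPM in Rpl22+/+, without overlap (log2 fold change 0.24, edgeR adjusted p = 0.156). Timm22, the channel of that complex and the only member in it, had 27.0, 32.2 and 22.9 against 23.8, 29.1 and 26.9 CPM, with both groups across the same range and a log2 fold change of 0.04.

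No gene of the import motor, the processing peptidase or the SAM complex was called by edgeR, DESeq2 or limma-voom, and none of these 10 had an unadjusted p below 0.05 in edgeR. Hspa9, the chaperone (mortalin) that pulls chains into the matrix, had the most reads of any member in every library. It stood at 417, 546 and 499 CPM in Rpl22-/- and 439, 457 and 380 CPM in Rpl22+/+, overlapping, with a log2 fold change of 0.20 (SE 0.108, edgeR adjusted p = 0.301). Grpel1, which exchanges the nucleotide on Hspa9, had 40.6, 53.0 and 40.3 CPM above 39.3, 39.4 and 39.5 CPM. That lack of overlap was narrow for Rpl22-/- replicates 1 and 3, and the log2 fold change of 0.18, which was 0.04 without Rpl22-/- replicate 2, did not pass (edgeR adjusted p = 0.394). Timm44, the anchor of the motor, Dnajc19, its J protein, and Pam16, the partner of Dnajc19, lay between −0.08 and 0.12 on the log2 scale. Transcripts of Gm9803 and Glis2 match that of Pam16 with an identity of 100%, over 534 and 439 bases. Over all libraries Gm9803 held 13 reads, Glis2 1705 and Pam16 1269. How reads that fit several of them were counted is a limit on the value of Pam16. Pmpcb, the catalytic subunit of the peptidase, had 63.4, 72.9 and 63.3 against 65.8, 68.6 and 61.9 CPM, and Pmpca, which recognises the substrate, differed by 0.01 on the log2 scale (SE 0.0807). The groups overlapped for both, and they had among the smallest differences of the 30. Of Pmpca, 25.0% of the exon bases are shared with Inpp5e on the opposite strand, a limit of the same kind as for Tomm40. Mtx1 shares 16.5% of its exon bases with Gm43737 and Grpel1 11.6% with Tada2b, also on the opposite strand. In the SAM complex, Mtx2, a subunit on the cytosolic side, had 39.5, 43.9 and 36.2 against 45.5, 43.3 and 38.6 CPM (log2 fold change −0.10), overlapping, and its partner Mtx1 and the channel Samm50 lay at 0.09 and 0.04. Tomm34, a co-chaperone of the cytosol that is no subunit of these complexes, had 86.6, 83.6 and 77.3 against 82.6, 84.7 and 84.5 CPM, overlapping, with a log2 fold change of −0.02.

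The 3 Rpl22-/- libraries did not stand equally high. Replicate 2 was the highest of its genotype for 22 of the 30 members, replicate 1 for 8 and replicate 3 for 0, while replicate 3 was the lowest for 21. The median over the members of the log2 of CPM over the Rpl22+/+ mean was 0.193 in replicate 2, 0.044 in replicate 1 and −0.019 in replicate 3. For the 4 called genes alone the medians were 0.617, 0.356 and 0.381, so these stood above Rpl22+/+ HSCs in each library, the direction by which they had been called. Rpl22-/- replicate 2 also had the highest share of reads on genes of the mitochondrial genome, 3.83% where the others had 3.06% to 3.61%, and the most Mpo, a granule enzyme of neutrophil precursors, at 101 CPM where the others had 1.46 to 20.5. Of the same marker list, Elane, Ctsg and Csf1r were also highest there, while Prtn3, S100a8, S100a9, Ly6g, Itgam and Lyz2 were not. The part of the mitochondrial reads or of these markers in the members' levels was not tested. Among Rpl22+/+ libraries, replicate 3, which had the fewest reads, was the lowest for 18 of the 30.

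The reads of 2 genes within a library give a ratio that no scaling between libraries can move. For 12 pairs of genes whose products work together or are paralogues, chosen after the values had been seen, the ratios are given as a description with no test. Timm23 had 1.42, 1.83 and 1.47 reads for each read of Timm21 in Rpl22-/- libraries and 1.08, 1.07 and 0.857 in Rpl22+/+ libraries. The groups stood apart, and this was the widest difference of the 12 (0.65 on the log2 scale). Tomm40 had 0.943, 0.902 and 0.977 reads for each read of Tomm22 in Rpl22-/- and 0.694, 0.735 and 0.595 in Rpl22+/+ libraries, a ratio that varied little among the former. Rpl22-/- libraries were also above for Tomm40 to Tomm40l, Timm13 to Timm8a1 and, by less, for the receptors Tomm20 to Tomm70a. For Timm13 to Timm8a1 the groups nearly touched, with 2.07 in Rpl22-/- replicate 1 and 2.03 in Rpl22+/+ replicate 3. Except for Tomm20 to Tomm70a, the pairs that stood apart have a called gene first. Timm21, in the widest, was the only member below in all Rpl22-/- libraries. Their order thus follows in part from the calls, and no share of separated ratios over all genes was taken. For the other 7 pairs the libraries overlapped. Among these, Pmpca had 2 ± 0.236 reads for each read of Pmpcb in Rpl22-/- and 2.01 ± 0.0559 in Rpl22+/+ libraries (SD, n = 3 each), and Timm17b to Timm17a stood at 1.25 ± 0.0864 and 1.20 ± 0.0641. A ratio of reads depends on the length of both transcripts and is not a ratio of molecules. Ratios with Tomm40, Tomm40l, Pmpca, Mtx1 or Grpel1 carry the limit of exon bases shared with a gene on the opposite strand. Timm17b, Dnajc19, Timm13, Timm9 and Tomm70a share 4.9% or less of theirs in this way.

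**Figure D4:**
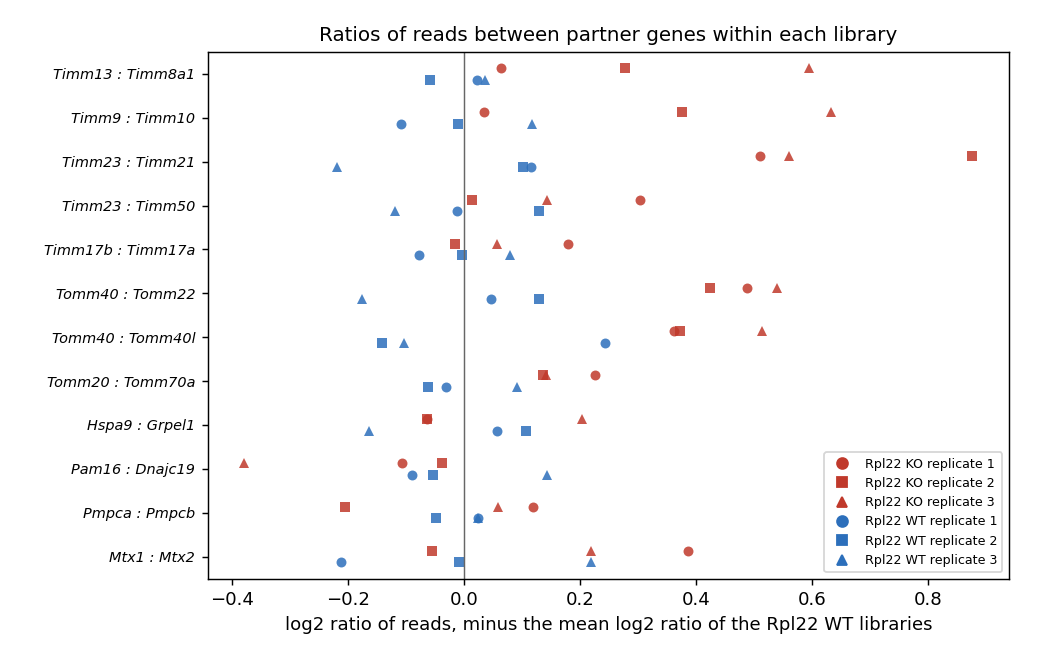
Ratio of reads between partner genes within each library, as the log2 ratio minus the mean log2 ratio of the Rpl22 WT (Rpl22+/+) libraries, for 12 pairs in rows. The red markers (Rpl22 KO, Rpl22-/-) lie apart to the right for 5 pairs, furthest for Timm23 to Timm21 and barely for Timm13 to Timm8a1. For the other 7 they mix with the blue.

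Per kilobase of exon, Hspa9 stood highest, at 160 ± 21.4 CPM per kilobase in Rpl22-/- and 140 ± 13.3 in Rpl22+/+ HSCs (SD, n = 3 each). In Rpl22+/+ HSCs it was followed by Tomm7 at 58.3 ± 6.16 and Tomm5 at 44.5 ± 2.35 CPM per kilobase. Pmpcb, Timm44, Timm23 and Tomm22 came next, between 39.4 and 40.5, and did not differ beyond their spread. In Rpl22-/- HSCs Timm23 and Tomm5 stood level at 54.8 CPM per kilobase, beside 57.4 ± 3.93 for Tomm7. At the low end were Timm17a at 3.34 ± 0.183 and Tomm20l at 0.882 ± 0.582 CPM per kilobase in Rpl22+/+ HSCs. By this measure the paralogues of each pair were unequal. Timm17b stood at 12.2 ± 0.0648 above Timm17a, and Tomm40 at 26.2 ± 2.84 above Tomm40l at 7.31 ± 1.02. Tomm20 at 29.4 ± 0.746 stood above Tomm20l. Before division by length, the Rpl22+/+ means were 29 CPM for Timm17b and 24.3 for Timm17a, and 43.9 for Tomm40 and 34.7 for Tomm40l. The gaps in these pairs thus rest largely on exon lengths, 2381 against 7280 bases and 1675 against 4743 bases. Lengths are those of all exons annotated for a gene, so a gene with a long exon that HSCs do not use is set too low.

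**Figure D5:**
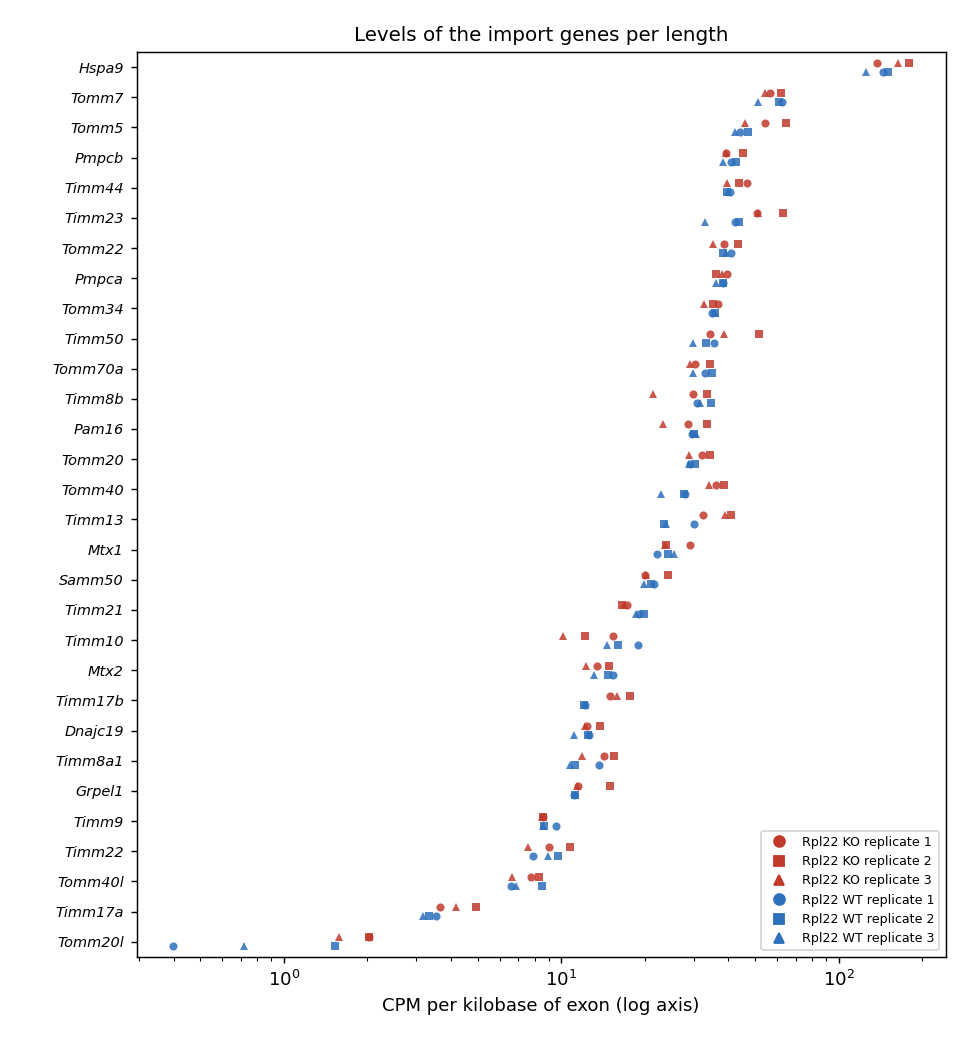
Level of each import gene tested in each library, in CPM per kilobase of exon on a log axis, ordered by the mean of the Rpl22 WT (Rpl22+/+) libraries. Hspa9 stands highest, and most genes lie between 10 and 60. The markers of Timm23, Tomm40, Timm13 and Timm17b part by genotype, as do those of Timm21 and, by little, Timm17a, Tomm20l and Grpel1.

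Of a list of 31 other genes of the pathway, 30 were found and tested, and 1 passed, Romo1, or 3.33% of them where 5.57% of all genes were called. It encodes a small inner membrane protein that couples Timm21 to the TIM23 complex. Romo1 had 32.4, 51.7 and 47.1 CPM in Rpl22-/- and 26.4, 22.7 and 23.6 CPM in Rpl22+/+ libraries. The groups were apart, with replicate 1 the lowest of the Rpl22-/- libraries, and the log2 fold change was 0.85 (SE 0.151, edgeR adjusted p = 0.00676). Without Rpl22-/- replicate 3 the log2 fold change was 0.79 and the call was lost (edgeR adjusted p = 0.0561), while without Rpl22-/- replicate 1 there were 3 partner genes called. Positive fold changes were found for 22 of the 30 (73.3%, beside 48.7% of all genes), with a median of 0.103. At an unadjusted p below 0.05, 3 were higher and 2 lower, or 16.7% against 22.3% of all genes, and none was called lower by edgeR, DESeq2 or limma-voom. The gene with the smallest p in each other group did not pass: Chchd4, the oxidoreductase that folds the small TIMs (0.13 on the log2 scale), Immp1l, a presequence peptidase of the inner membrane (−0.23), Oxa1l, the insertase (0.15), Clpx, a subunit of a matrix protease (−0.23), and Chchd3, a subunit of the contact site complex MICOS (0.26). Oxa1l was above in all 3 Rpl22-/- libraries and Clpx below in all 3, and the other 3 overlapped.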

How the data were processed

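RNA-seq of sorted HSCs gave 3 Rpl22-/- and 3 Rpl22+/+ libraries. The authors aligned reads to mm10 with TopHat2 2.1.1 and deposited whole-number HTSeq counts per gene, without normalization (tools per the labels). The annotation and strand setting are not given in the sources used here. HTSeq's totals of unassigned reads, 58.6% to 60.9% of each library, were kept out.

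In edgeR 4.0.16 (R 4.3.3), filterByExpr (minimum count 10) kept 14004 genes, TMM scaled the libraries, and the quasi-likelihood test compared genotypes with Benjamini-Hochberg adjustment over all of them, a call being an adjusted p below 0.05. The standard error is the log2 fold change over the root of the F statistic. No replicates were copies of each other (chi-square per degree of freedom of 4.09 or more). Positions and exon lengths came from GENCODE M21 (GRCm38), matched for 30876 genes, copies from BLAST 2.17.0, and promoters from RefSeq.

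The members and lists were chosen with earlier results of these data known. Values in every library are given for members called, members without overlap and the smallest p of each role; Timm10, Timm50, Tomm5, Fxc1 and 1810026J23Rik were added after their values were seen. Other settings were scaling by RLE, by upper quartiles or by library size only, tests by DESeq2 1.42.0 and by limma-voom (limma 3.58.1), 2 other filters, each library left out, a replicate block, and lowess correction for exon length within a library. Scripts were tested on simulated data.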

Additional observations from a re-analysis of the deposited data

How the results depend on the processing

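Under 16 other ways of processing the counts, the members called higher, which were all the members called, numbered 4 with RLE or upper-quartile factors, DESeq2, limma-voom, a minimum of 10 counts in every sample, and a replicate block. Scaling by library size alone gave 3, no filter 5, and removing the trend on gene length 2 (Tomm40 and Timm13), or 2 with the replicate block as well (Tomm40 and Timm23). Leaving out 1 library gave 0 to 6, and for the partner genes 0 to 3. No alternative called a member lower, and the members' median log2 fold change stayed between 0.02 and 0.14. The direction of 11 of the 30 members turned under some alternative, none of which had a log2 fold change beyond 0.093 in either direction as reported. By library size alone 4 turned (Pmpca, Pmpcb, Samm50 and Timm22). Pmpcb became −0.023 by library size, −0.046 with the length trend removed and −0.046 with the block and length trend, and Timm22 −0.007 by library size. Over the fits that left out 1 library, Pmpcb ran from −0.048 to 0.060, Timm22 from −0.093 to 0.155, Tomm34 from −0.056 to 0.022 and Fxc1 from −0.260 to 0.017. The causes were not tested.

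Same-numbered libraries of the genotypes did not deviate together (correlations of −0.103, 0.0549 and 0.0448), so replicate numbers were not taken to pair the samples. With the replicate block, 904 genes were called in place of 780, and the same 4 members. With 3 libraries per genotype and members at 3 to 6566 reads, small differences may have been missed.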
